A study of Mus musculus with 66 samples.

Results

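Plasma levels of 5 immune miRNAs, miR-150-5p, miR-150-3p, miR-155-5p, miR-146a-5p and miR-146b-5p, were compared between male C3H mice with and without hepatocellular carcinoma (HCC). They were taken by name from 1826 miRNAs counted by small RNA sequencing, and all 5 passed the filter on low counts with which 1452 miRNAs were tested. Plasma came from blood drawn by cardiac puncture at necropsy from 8 HCC mice and 5 mice with non-HCC histology, all of the inbred C3H strain and all labelled as over 12 months after radiation. C3H mice also develop liver tumors without irradiation, and the HCC mice of the study include spontaneous and radiation-induced tumors, which the labels do not separate. The shared radiation label therefore does not tell which mice were irradiated. The methods describe spinning out cells and platelets and discarding hemolyzed samples. Each value is the number of unique molecular indices (UMIs) of a miRNA, a count of captured molecules without PCR copies.

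A miRNA is a short RNA that guides Argonaute proteins to target mRNAs, mainly through its seed, bases 2 to 8 of the mature strand. MiR-150 is abundant in mature B, T and NK lymphocytes and restrains Myb during lymphocyte development. MiR-155, cut from the Mir155hg (BIC) transcript, is induced by NF-kB and AP-1 in activated lymphocytes and macrophages and represses, among others, Inpp5d (SHIP1) and Socs1. MiR-146a is induced by NF-kB after Toll-like receptor signaling and dampens it by repressing Traf6 and Irak1, and miR-146b shares its seed but comes from another locus.

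Mature sequences of 4 of the 5 members were matched in RefSeq (GRCm38.p6) and are shown because they tell which members can share targets and reads. The 4 sequences, with the seed in capitals, are:
mmu-miR-150-3p: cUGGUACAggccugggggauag
mmu-miR-155-5p: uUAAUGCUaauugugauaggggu
mmu-miR-146a-5p: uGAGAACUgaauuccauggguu
mmu-miR-146b-5p: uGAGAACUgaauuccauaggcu
The seed GAGAACU was shared by miR-146a-5p and miR-146b-5p, and no other mature mouse miRNA of the reference table had it. The seeds of miR-155-5p and miR-150-3p were shared with no other miRNA of that table, in which miR-150-5p was not found. With positions counted from the 5′ end and the base of miR-146a-5p given first, the miR-146 strands differ at G18A and U21C, so that 20 of 22 bases are identical and both differences lie outside the seed. How the authors' counting treats reads that could come from either strand is not given in the sources used here.

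The members lie on 4 chromosomes. Mature miR-150-3p lies at chr7:45121798-45121819 on the plus strand, within Mir150 (chr7:45121757-45121821), which overlaps no other gene of the GENCODE M21 annotation. Mature miR-155-5p lies at chr16:84714143-84714165 on the plus strand, in an exon of the noncoding host gene Mir155hg. Mature miR-146a-5p lies at chr11:43374435-43374456 on the minus strand, in Mir146, which overlaps no other annotated gene. Mature miR-146b-5p lies at chr19:46342790-46342811 on the plus strand, within an intron of Mfsd13a, a protein-coding gene.

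Between 9513136 and 14247488 miRNA UMIs were counted per mouse. The spike-in UniSP2, added before RNA isolation, varied 5.66-fold among the HCC mice and 2.01-fold among the non-HCC mice, so that levels set on the spike-ins carry this spread. Libraries of HCC mice 1 and 6, 2 and 5, and 3 and 7 resembled each other more than the other HCC libraries did, with a Pearson correlation of 0.991 to 0.997 across miRNAs. It was 0.866 to 0.940 for the other 25 HCC pairs and 0.971 to 0.992 for pairs of non-HCC mice. Counts within the similar HCC pairs differed beyond sampling noise, with a mean chi-square per miRNA of 74.6 to 183. It was 3286 to 27286 for the other HCC pairs and 260 to 2961 for pairs of non-HCC mice. Sampling noise does not include the spread of library preparation, so separate mice and repeat libraries of a plasma cannot be told apart by these values. The 8 were kept as the labels name them, as separate mice. If the pairs were repeats, the HCC group would hold 5 mice instead of 8. The smallest exact two-sided permutation p would then be 0.00794 instead of 0.000777. Calls and ratios are therefore also given with these pairs summed. Liver miRNAs took a large part of the HCC libraries, with miR-122-5p alone at 2.20% to 42.7% of the UMIs of the HCC mice and 0.180% to 0.424% of those of the others. A miRNA given as counts per 1000000 miRNA UMIs (CPM) is therefore a share of a library whose makeup differs between the groups. Nothing in the labels says that the samples differ in batch. The p-values measure the spread between these libraries, taken as separate mice unless the pairs are said to be summed.

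MiR-150-5p and miR-155-5p took a smaller share of the miRNA molecules in the plasma of each HCC mouse than in that of any non-HCC mouse. Of the 1452 miRNAs tested, 30 (2.07%) separated the groups in this way in CPM, and 0 (0%) did so on the spike-in scale. On the spike-in scale neither miR-150-5p nor miR-155-5p passed the test. MiR-146b-5p was 28.3-fold higher in HCC mice on the spike-in scale, through 4 of the 8 mice. MiR-146a-5p did not pass the test on any library scale. Within each library, however, the ratio of miR-150-5p and of miR-155-5p to miR-146a-5p was lower in all 8 HCC mice than in the 5 non-HCC mice. The ratios tested share miRNAs and are not independent results. How often the ratios of other miRNAs separate the groups was not counted.

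**Figure D1:**
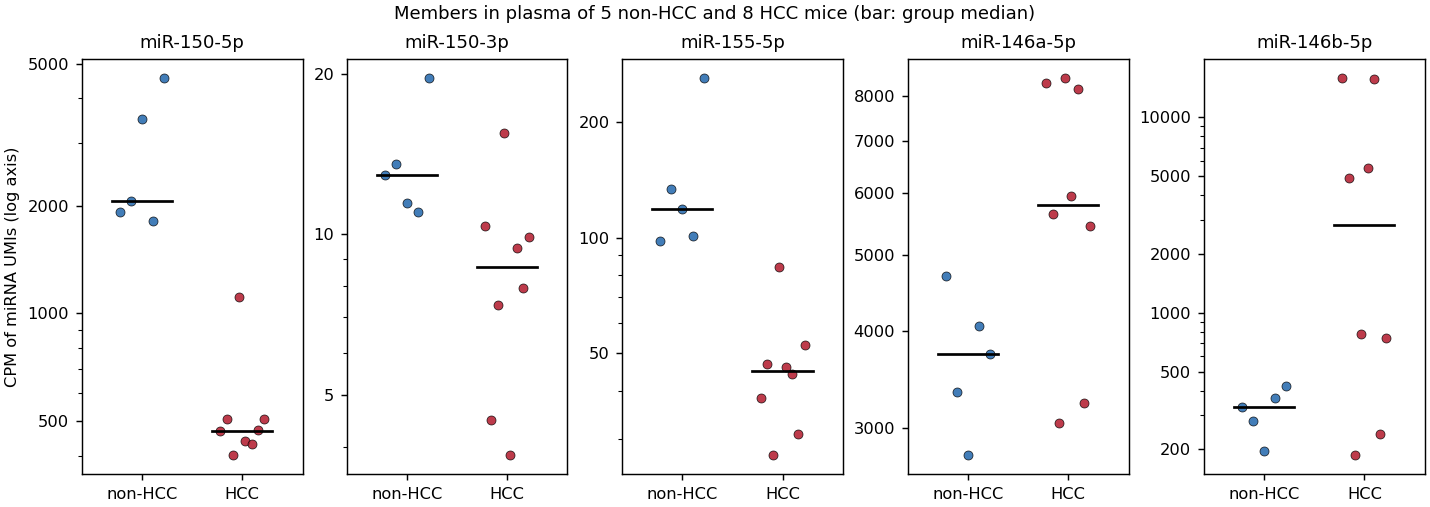
UMIs in CPM, the share of all miRNA UMIs of a library (log axis, its own range in each panel) of the 5 members in 5 non-HCC mice (blue) and 8 HCC mice (red), with 1 point per mouse and a bar at the group median. The points of miR-150-5p and miR-155-5p do not overlap between the groups, and those of miR-146b-5p spread from 187 to 15895 among the HCC mice. All HCC mice lay below all non-HCC mice in CPM for 30 of the 1452 miRNAs tested (2.07%).

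Counts were compared by the quasi-likelihood test of edgeR. The library scale was the average of the spike-ins UniSP2 and UniSP4, the scale named in the study's methods. UniSP2 had 165794 to 938898 UMIs per mouse and UniSP4 had 225 to 1008, so this average is set almost wholly by UniSP2. The p-values were adjusted by Benjamini-Hochberg over all 1452 miRNAs. A miRNA with an adjusted p under 0.05 is called. On this scale 109 miRNAs, or 7.51% of those tested, were higher in HCC mice, and 0, or 0%, were lower, with 3 lower at an unadjusted p under 0.05. Of the members, 1 was called, miR-146b-5p, and it was higher. Without non-HCC mouse 1, 2, 3 or 4 the number called was 44, 47, 47 or 53, and without HCC mouse 2 it was 65. With TMM factors, which are computed from the miRNA counts themselves, 107 miRNAs (7.37%) were higher and 32 (2.2%) were lower, and with total miRNA UMIs as the scale 123 (8.47%) were higher and 32 (2.2%) were lower. The 139 called with TMM factors became 81, 72, 75 or 76 without non-HCC mouse 2, 3, 4 or 5, and the 32 lower ones became 17, 14, 16 or 16. Without HCC mouse 4, 6 or 8 there were 20, 14 or 21 lower ones, and with the similar libraries summed 8 of 99 were lower. On each of these scales 2 of the 5 members, miR-150-5p and miR-155-5p, were lower and miR-146b-5p was higher. Over all miRNAs tested, the log2 fold changes had a median of 0.78 on the spike-in scale, 0.17 with TMM factors and 0.37 with total UMIs, so a member at 0 on the spike-in scale lies below the bulk of the miRNAs.

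**Figure D2:**
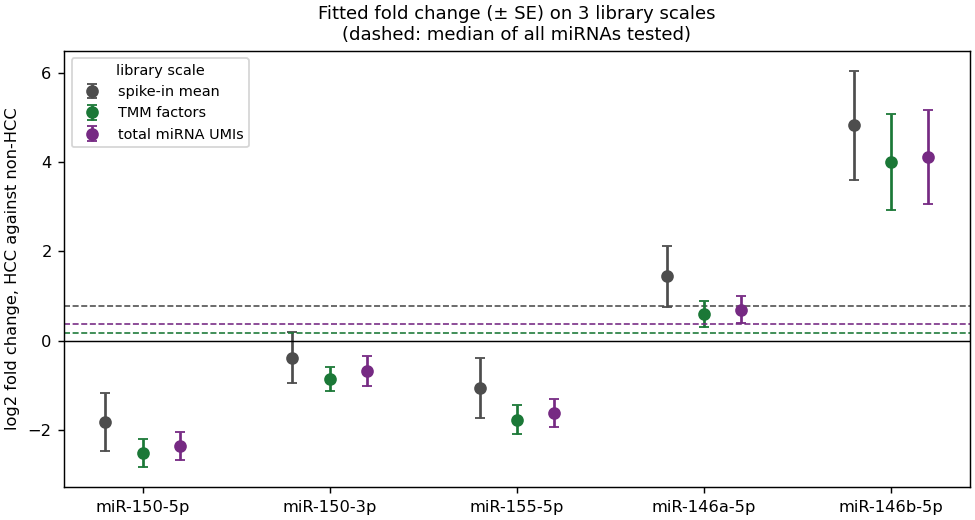
Log2 fold change of HCC against non-HCC mice fitted by edgeR for each member (points, with bars of 1 SE) with the spike-in mean, TMM factors or total miRNA UMIs as the library scale, and the median of all 1452 miRNAs tested on each scale (dashed lines). The order of the members is alike on the 3 scales, and the error bars are longer on the spike-in scale for miR-150-5p, 0.65 against 0.32 with TMM factors.

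MiR-150-5p, the lymphocyte miRNA, ranked 63rd of 1826 by its mean UMI count. The non-HCC mice had 21020, 28699, 36623, 24537 and 63739 UMIs, or 1814 to 4565 CPM. The HCC mice had 4192 to 13951 UMIs with a median of 5188, or 401 to 1110 CPM. All 8 HCC mice lay below all 5 non-HCC mice in counts and in CPM, and the median CPM was 4.41-fold lower. Groups separated in this direction in CPM for 30 of the 1452 miRNAs tested, or 2.07%, and on the TMM scale for 29, or 2%.

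On the spike-in scale, the fitted log2 fold change of miR-150-5p was -1.82 ± 0.65 (SE), a 3.52-fold lower level, and its adjusted p in edgeR was 0.0957, which missed the threshold. Without non-HCC mouse 5, the highest, the value was -1.11. Log2 levels averaged 12.70 ± 1.30 (SD, n = 8) with HCC and 14.68 ± 1.00 (SD, n = 5) without it, with an exact two-sided permutation p of 0.0179. On this scale 5 of the 8 HCC mice lay below all non-HCC mice, and no miRNA (0%) had all 8 below. With TMM factors the log2 fold change was -2.51 ± 0.32 (SE), or 5.69-fold lower, with an adjusted p of 0.000804 in edgeR, and it remained called without any of the 13 mice. The difference in the mean TMM level had an exact permutation p of 0.000777, the smallest that 8 and 5 mice can give. With the similar libraries summed, the TMM value was -2.39 with an adjusted p of 0.00651 in edgeR.

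MiR-150-3p, the other arm of the same hairpin, was far less abundant and ranked 335th. It had 141, 188, 120, 149 and 274 UMIs in the non-HCC mice and 54 to 195 in the HCC mice, with a median of 93. The groups overlapped through HCC mouse 4, the only HCC mouse to reach the non-HCC range. The fitted log2 fold change was -0.38 ± 0.58 (SE) on the spike-in scale, with an adjusted p of 0.857 in edgeR, and -0.86 ± 0.27 (SE) with TMM factors, with an adjusted p of 0.0560. The sign on the spike-in scale rested on non-HCC mouse 5, without which the value was 0.17.

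The arms of miR-150 did not move alike. The non-HCC mice had 148 to 303 UMIs of the 5p arm for each UMI of the 3p arm, and the HCC mice had 44.6 to 112, so that the groups did not overlap. The log2 ratio was 6.00 ± 0.54 (SD, n = 8) with HCC and 7.58 ± 0.45 (SD, n = 5) without it, a difference of -1.58 with an exact permutation p of 0.000777 and a Benjamini-Hochberg value of 0.00214 over the 11 ratios tested. Summing the similar libraries gave -1.59 (exact permutation p = 0.00794, Benjamini-Hochberg value 0.0109). Both counts of a ratio come from the same library, so the library scale cancels.

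MiR-155-5p, induced by NF-kB in activated immune cells, ranked 169th. It had 1067, 1857, 1243, 1369 and 3634 UMIs in the non-HCC mice and 284 to 1057 in the HCC mice, with a median of 465. The highest HCC mouse, mouse 4, was 10 UMIs below the lowest non-HCC mouse. As a share of the library the groups also did not overlap, at 27.2 to 84.1 CPM in HCC and 97.8 to 260 in non-HCC mice, and the median was 2.64-fold lower. This separation in CPM was seen for 30 of the 1452 miRNAs tested, or 2.07%.

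On the spike-in scale the log2 fold change of miR-155-5p was -1.06 ± 0.68 (SE), with an adjusted p of 0.453 in edgeR, and 4 of 8 HCC mice lay below all non-HCC mice. Without non-HCC mouse 5, the highest, it was -0.25. With TMM factors it was -1.77 ± 0.32 (SE), or 3.41-fold lower, with an adjusted p of 0.00467, and it remained called without any of the 13 mice. With the similar libraries summed it was -1.65 with TMM factors, with an adjusted p of 0.0267 in edgeR. The 3p arm of miR-155 was near the lowest listed value of 10 UMIs, with entries of 0 in 4 HCC and 4 non-HCC mice and at most 41 UMIs, and its arms are not compared.

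MiR-146a-5p, the feedback inhibitor of Toll-like receptor signaling, was the most abundant member and ranked 31st. The non-HCC mice had 51232, 46252, 29005, 54829 and 52139 UMIs, and the HCC mice had 31811 to 105988, with a median of 79866. The counts of 5 HCC mice exceeded the non-HCC range, and those of HCC mice 3, 7 and 8 lay within it. The log2 fold change was 1.45 ± 0.68 (SE) on the spike-in scale, with an adjusted p of 0.243 in edgeR, and 0.60 ± 0.30 (SE) with TMM factors, with an adjusted p of 0.250. In the fits with another scale, test, filter, block or set of libraries it lay between 0.49 and 1.73, above 0 in each, and passed the threshold in none.

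MiR-146b-5p varied most among the members. The non-HCC mice had 3590, 3868, 2056, 4985 and 5886 UMIs. The HCC mice 1, 2, 5 and 6 had 162309, 69467, 77001 and 153144 UMIs, and mice 3, 4, 7 and 8 had 1955, 9821, 2823 and 7036. The latter 4 lay in or near the non-HCC range, with mouse 3 below it and mice 4 and 8 above it. Mice 1 and 6, and mice 2 and 5, are pairs of similar libraries, so the high values came from 2 such pairs.

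The fitted log2 fold change of miR-146b-5p was 4.82 ± 1.22 (SE) on the spike-in scale, with an adjusted p of 0.0189 in edgeR, and 4.01 ± 1.07 (SE) with TMM factors, with an adjusted p of 0.0282. With the similar libraries summed it was 4.47, with an adjusted p of 0.0185. It did not pass in limma on log2 levels, which gave 2.98 with an adjusted p of 0.299, and the exact permutation p of the mean log2 level was 0.1002. Without non-HCC mouse 1, 2 or 3 the adjusted p in edgeR was 0.0570, 0.0558 or 0.0589 on the spike-in scale, and with TMM factors it was 0.0617 to 0.0722 without any 1 of the 5 non-HCC mice.

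The 3p arm of miR-146b, whose sequence (mmu-miR-146b-3p: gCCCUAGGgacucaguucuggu) has a seed of its own, gave a second count from the same hairpin. It had 24, 20, 18, 39 and 28 UMIs in the non-HCC mice and 36 to 721 in the HCC mice, with a median of 191. HCC mice 1 and 6 were highest with 721 and 673 UMIs, and HCC mouse 3 was lowest, within the non-HCC range in UMIs and above it in CPM. Its log2 fold change was 4.16 ± 0.96 (SE) on the spike-in scale, with an adjusted p of 0.0125 in edgeR, and 3.42 ± 0.77 (SE) with TMM factors, with an adjusted p of 0.0144. MiR-146a-3p had at most 22 UMIs in any mouse and did not pass the test.

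**Figure D3:**
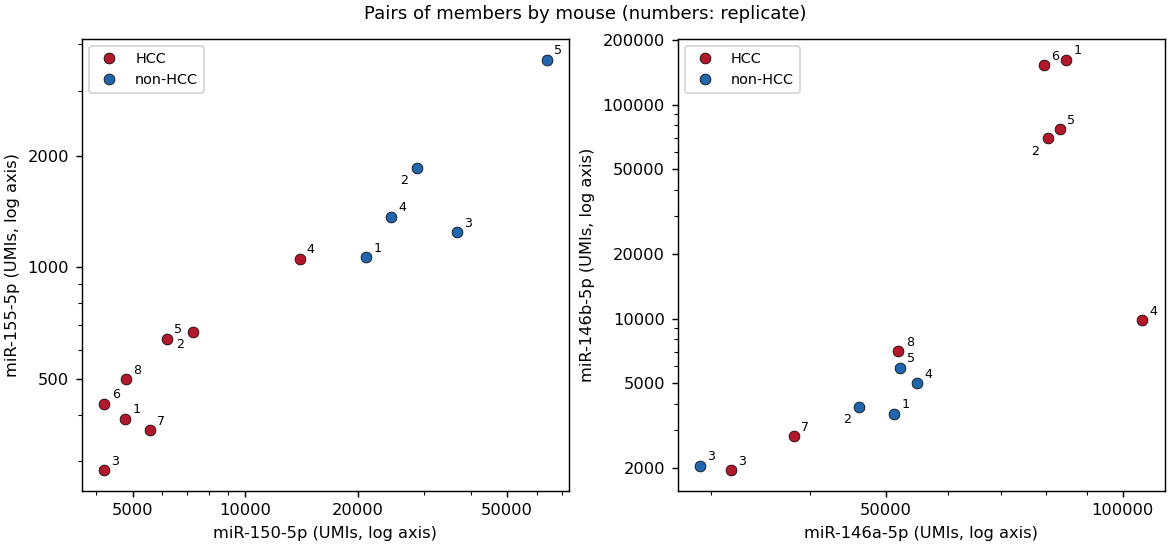
UMIs per mouse (both axes log) of miR-155-5p against miR-150-5p (left) and of miR-146b-5p against miR-146a-5p (right), with HCC mice in red, non-HCC mice in blue and the replicate number beside each point. HCC mice 1, 2, 5 and 6 stand apart at 69467 to 162309 UMIs of miR-146b-5p. In the left panel all HCC mice have fewer UMIs of miR-150-5p and of miR-155-5p than any non-HCC mouse.

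The lymphocyte miRNA was set against the NF-kB induced miRNAs within each library. In the non-HCC mice the order of miR-150-5p and miR-146a-5p was not fixed, with 0.410, 0.621, 1.26, 0.448 and 1.22 UMIs of miR-150-5p for each of miR-146a-5p. In the HCC mice miR-146a-5p was ahead in all 8, by 6.87-fold to 18.9-fold. The log2 ratio of miR-150-5p to miR-146a-5p was -3.46 ± 0.56 (SD, n = 8) with HCC and -0.50 ± 0.78 (SD, n = 5) without it. It differed by -2.96, or 7.77-fold, with an exact permutation p of 0.000777 and a Benjamini-Hochberg value of 0.00214. Summing the similar libraries gave a difference of -2.90 (exact permutation p = 0.00794, Benjamini-Hochberg value 0.0109).

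MiR-155-5p and miR-146a-5p, both NF-kB induced, also parted. For each UMI of miR-155-5p there were 47.97, 24.9, 23.3, 40.02 and 14.3 UMIs of miR-146a-5p in the non-HCC mice and 100.2 to 216 in the HCC mice, with no overlap. The log2 ratio of miR-155-5p to miR-146a-5p was lower in HCC mice by 4.66-fold (difference -2.22, exact permutation p = 0.000777, Benjamini-Hochberg value 0.00214). This was less than the difference for miR-150-5p, since the ratio of miR-150-5p to miR-155-5p was itself lower in HCC mice. The non-HCC mice had 15.4 to 29.4 UMIs of miR-150-5p for each of miR-155-5p and the HCC mice 9.57 to 15.3, a difference of -0.74 on the log2 scale (exact permutation p = 0.00155, Benjamini-Hochberg value 0.00342). The differences of miR-155-5p over miR-146a-5p and of miR-150-5p over miR-155-5p were -2.15 and -0.75 with the similar libraries summed, each with an exact permutation p of 0.00794 and a Benjamini-Hochberg value of 0.0109. The groups touched, with HCC mouse 7 at 15.3 and non-HCC mouse 2 at 15.4, and did not overlap.

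Against miR-146b-5p the ratios of miR-150-5p and miR-155-5p were lower by 4.96 and 4.22 on the log2 scale, given as HCC minus non-HCC differences of -4.96 and -4.22, with exact permutation p-values of 0.00389 and 0.00544, or of 0.00794 each with the similar libraries summed. The ratio of miR-146a-5p to miR-146b-5p did not differ beyond the spread of the mice (difference -2.001, exact permutation p = 0.0839, Benjamini-Hochberg value 0.0923). The non-HCC mice had 8.86 to 14.3 UMIs of miR-146a-5p for each of miR-146b-5p. HCC mice 1 and 6 had 0.523 and 0.519, mice 2 and 5 had 1.16 and 1.08, and mice 3, 4, 7 and 8 had 7.37 to 16.3. The ratio passed the threshold without HCC mouse 3 or 7, with Benjamini-Hochberg values of 0.0264 and 0.0389.

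**Figure D4:**
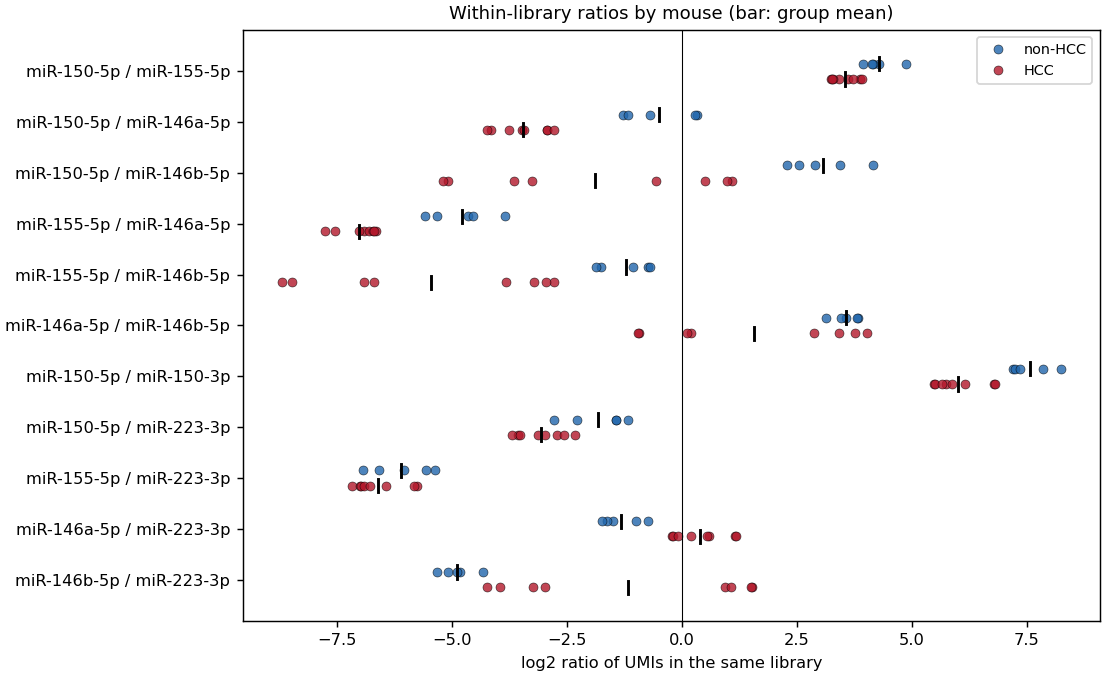
Log2 ratio of the UMIs of 2 miRNAs in the same library (x axis) for the 11 ratios tested, with 1 point per mouse, HCC in red and non-HCC in blue, and a bar at the group mean. All HCC points lie below all non-HCC points for miR-150-5p and miR-155-5p over either miR-146 strand, for miR-150-5p over miR-155-5p and for the arms of miR-150, and above them for both miR-146 strands over miR-223-3p.

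Some leukocyte and platelet markers were, like miR-150-5p and miR-155-5p, lower in HCC mice with TMM factors. The 4 leukocyte and platelet miRNAs listed, both arms of miR-223 and of miR-142a, summed to 9514 to 15581 CPM with HCC and 17482 to 39013 without it. With TMM factors 3 of the 4 were lower in HCC mice, miR-223-3p by a log2 fold change of -1.24, miR-142a-3p by -1.18 and miR-142a-5p by -2.28, and 0 of 4 were called on the spike-in scale. With the similar libraries summed, miR-223-3p alone was called with TMM factors (adjusted p = 0.0420 in edgeR), and the values were 0.102 for miR-142a-3p and 0.0701 for miR-142a-5p. With TMM factors miR-223-3p was called without any of the 13 mice. MiR-142a-5p was not called without non-HCC mouse 5 (adjusted p = 0.110 in edgeR), and miR-142a-3p lost its call when any 1 of 8 mice was left out, non-HCC mice 1, 2, 4 and 5 and HCC mice 1, 4, 6 and 8 (adjusted p up to 0.137). None of these markers was at 0 in any mouse. On the spike-in scale the 4 log2 fold changes were -1.64 to -0.25, with adjusted p-values of 0.277 to 0.917 in edgeR. The parts of leukocyte number, of miRNA released per cell and of library makeup were not tested.

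Relative to miR-223-3p, the myeloid and platelet miRNA, miR-150-5p was still lower in HCC mice, with a log2 difference of -1.24 (exact permutation p = 0.00544, Benjamini-Hochberg value 0.00748), and 5 of 8 HCC mice lay below all non-HCC mice. MiR-155-5p relative to miR-223-3p differed by -0.51, which did not pass (exact permutation p = 0.153). MiR-146a-5p relative to miR-223-3p was higher by 1.71 and miR-146b-5p by 3.71, and in each case the lowest HCC mouse exceeded the highest non-HCC mouse (exact permutation p = 0.000777 and 0.00777). These 4 differences had exact permutation p-values of 0.0238, 0.206, 0.00794 and 0.00794 when the similar libraries were summed. On the TMM scale the mean log2 level of miR-146a-5p differed by 0.52 and that of miR-223-3p by -1.19. The values were 0.98 and -0.73 on the spike-in scale, so the ratio does not show a rise of miR-146a-5p alone. The part of blood cells in these results was not tested further.

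The 3 liver miRNAs listed, miR-122-5p, miR-192-5p and miR-194-5p, were all higher in HCC mice on both scales and summed to 38233 to 509650 CPM with HCC and 6496 to 8980 without it. The 5 red cell miRNAs, led by miR-16-5p and miR-451a, summed to 66881 to 394670 CPM with HCC and 365046 to 389426 without it, and 0 of 5 passed on either scale. Their median log2 fold change with TMM factors was -1.40. MiR-451a, an erythroid miRNA, was at 4239 to 42447 CPM in HCC and 63293 to 80680 in non-HCC mice, so that, like miR-150-5p and miR-155-5p, it did not overlap between the groups in CPM. Its log2 fold change with TMM factors was -1.40, with an adjusted p of 0.0916 in edgeR. The 2 endothelial and the 3 muscle miRNAs listed were not called on either scale. The part of these shifts in the levels of the members was not tested.

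Other miRNAs enriched in lymphocytes did not pass the test. The list held miR-342-3p, miR-342-5p and the 4 5p strands of the miR-181 family, which tunes T cell receptor signaling, and 5 of its 6 miRNAs were tested. On the spike-in scale 0 of 5 were called, with a median log2 fold change of 0.34 beside 0.78 for all miRNAs, and with TMM factors 0 of 5 were called, with a median of -0.40 beside 0.17. MiR-342-3p, with 5250 to 8690 UMIs in non-HCC and 3176 to 11147 in HCC mice, had a log2 fold change of 0.06 with TMM factors. MiR-181c-5p was lowest of the list at -1.03, with an adjusted p of 0.0540 in edgeR, and lay below the non-HCC mice in all 8 HCC mice in CPM. MiR-150-5p was the only lymphocyte miRNA considered that was called lower with TMM factors.

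Of 12 other miRNAs induced by NF-kB or Toll-like receptor signaling, 0 were called on the spike-in scale and 1 was called with TMM factors. That was let-7e-5p, which was lower (-0.79, adjusted p = 0.0295 in edgeR). It lost its call when any 1 of non-HCC mice 2, 3, 4 and 5 and HCC mice 4 and 6 was left out (adjusted p up to 0.0811). With the similar libraries summed let-7e-5p was not called (adjusted p = 0.116 in edgeR), and miR-99b-5p was called higher (1.16, adjusted p = 0.0452). The median log2 fold change of the 12 was 0.77 on the spike-in scale and 0.06 with TMM factors, close to the medians of 0.78 and 0.17 over all miRNAs. MiR-21a-5p, the most abundant of the 12, had 129316 to 411487 UMIs in non-HCC and 246407 to 777820 in HCC mice and a log2 fold change of 1.93 on the spike-in scale, with an adjusted p of 0.139. MiR-147-3p and miR-9-5p, both induced by Toll-like receptor ligands, had values of -0.95 and -1.21 with TMM factors and adjusted p-values of 0.0725 and 0.153 in edgeR.

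Co-variation between members was followed within the 8 HCC mice on the TMM scale, since the groups separate and the 5 non-HCC mice are too few. MiR-150-5p and miR-155-5p correlated with a Pearson r of 0.82 (exact permutation p = 0.0123) and a Spearman rho of 0.74 (exact permutation p = 0.0458). Over the 10 pairs of members the Benjamini-Hochberg values were 0.0616 and 0.229, so the relation did not pass, and without HCC mice 4 and 6, those farthest from the median, r was 0.81. MiR-150-5p and miR-146a-5p gave an r of 0.42 (exact permutation p = 0.306), and the arms of miR-150 one of 0.19 (exact permutation p = 0.663). On the spike-in scale these 3 values were 0.99, 0.93 and 0.93, where the spread of the spike-in counts is shared by all miRNAs of a mouse. In log2 CPM the r of miR-150-5p and miR-155-5p was 0.84, and it was 0.24 without HCC mice 4 and 3, the farthest from the median there. On the TMM scale miR-155-5p and miR-146a-5p gave an r of 0.70 (exact permutation p = 0.0546, Benjamini-Hochberg value 0.182). No coefficient within the HCC mice is given for the 4 pairs with miR-146b-5p, whose HCC values fell into 2 sets of 4 mice. The similar library pairs mean that the 8 points may not be independent.

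Over all 13 mice, the miRNAs ranked most like each member were taken from 363 miRNAs with a mean of at least 100 UMIs, by Spearman rho on the TMM scale, as a description. MiR-150-5p was followed most closely by miR-218-5p, miR-338-3p and miR-652-3p, each with a rho of 0.93. For miR-155-5p they were miR-652-3p (0.91), let-7e-5p (0.90) and miR-181b-5p (0.89). For miR-146a-5p they were miR-27a-3p (0.93), miR-872-3p (0.92) and miR-26b-3p (0.91), and for miR-146b-5p they were miR-345-3p (0.96), miR-28a-3p (0.95) and miR-26b-3p (0.92). MiR-652-3p was thus near miR-150-5p and miR-155-5p, and miR-26b-3p near both miR-146 strands. Where the groups differ in a member, part of each of its rho values is the difference between the groups. For miR-150-5p, miR-155-5p and miR-146a-5p the values within the 8 HCC mice ranged from 0.60 for let-7e-5p with miR-155-5p to 0.90 for miR-872-3p with miR-146a-5p.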

How the data were processed

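Circulating miRNAs were measured in plasma of 8 HCC and 5 non-HCC male C3H mice. RNA was isolated after adding UniSP2 and UniSP4, and libraries were built with a molecular-barcoding kit. The authors aligned reads to GRCm38, annotated miRNAs with miRBase 20 and deposited UMI counts without normalization, and FastQC and Bowtie2 are named in the submitters' processing notes. Columns were assigned by the mouse name in the labels. The other table, for F2 mice, has 53 columns whose names match no label, and none of them was used, so co-variation in F2 mice was not analysed here.

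The counts were fitted with edgeR 4.0.16 in R 4.3.3 (quasi-likelihood, Benjamini-Hochberg, threshold 0.05) after keeping the miRNAs that reached 5 UMIs in 5 or more mice. The lowest deposited value above 0 is 10, so an entry of 0 is read as under 10 UMIs. For levels and ratios 1 UMI was added to the count, and log2 levels were put on the scale named. An SE is the fold change over the root of the quasi-likelihood F. Exact two-sided permutation tests used all 1287 splits of the mice, in Python 3.11.15 with numpy 2.4.6 and pandas 2.3.3. The 11 ratios, the 10 pairs of members, the lists of lymphocyte, NF-kB and marker miRNAs and the rule for the most similar miRNAs, the 3 of highest rho, were chosen with earlier results of these data known, as were the members. Alternatives were TMM factors, UniSP2 or UniSP4 alone, total UMIs, limma 3.58.1, DESeq2 1.42.0, other filters, a block for the replicate number, and the omission of each mouse. Summing similar HCC libraries, and repeating that, the block and the omission of mice with TMM factors, also for the listed miRNAs, were added after seeing the data. The edgeR step was tested on simulated data. Loci are from GENCODE M21.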

Additional observations from a re-analysis of the deposited data

Results flagged for a closer look

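MiR-150-3p in non-HCC mice was singled out by 1 mouse far from the others. On the spike-in scale its log2 level was 8.49 in non-HCC mouse 5, against 7.03 in the next highest, a gap that took up 0.738 of the range, where Dixon's 95% limit for 5 mice is 0.710. This was 1 of 32 groups of mice searched, and chance gives about 1 in 20. The same mouse had the highest counts of miR-150-5p and miR-155-5p, and the cause was not tested.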

How the results depend on the processing

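Depth limits what can be said of miR-155-3p, miR-146a-3p and miR-342-5p, whose counts lie near the lowest listed value of 10 UMIs. The number of miRNAs called (109) became 44 in limma, 217 in DESeq2 with its own size factors, 181 in DESeq2 on the spike-in scale, and 44 to 157 without 1 mouse. MiR-150-5p passed with TMM factors (-2.51), UniSP4 alone (-1.80), total UMIs (-2.36) and DESeq2 on its own scale (-2.47) or the spike-in scale (-1.82). MiR-155-5p passed with TMM factors (-1.77), total UMIs (-1.62) and DESeq2 on its own scale (-1.73), the last of which also called miR-150-3p (-0.82). MiR-146b-5p did not pass in limma (2.98). Without 1 mouse the values were 4.48 to 5.29 for miR-146b-5p, -2.07 to -1.11 for miR-150-5p, -1.33 to -0.25 for miR-155-5p, with -1.11 and -0.25 reached without non-HCC mouse 5, and -0.60 to 0.17 for miR-150-3p, which changed sign without non-HCC mouse 5 (0.17). The cause of these changes was not tested. With the replicate number as a block 145 miRNAs were called, miR-146b-5p was at 3.901 and miR-150-5p at -1.53, and with TMM factors the block gave 3.03 for miR-146b-5p, which no longer passed (adjusted p = 0.109 in edgeR). HCC mice 6, 7 and 8 share their number with no non-HCC mouse, so the fold changes with the block rest on the 5 same-numbered pairs. Same-numbered mice correlated by -0.174 to 0.218, 3 of 5 over 0.1, and 1 of 5 best with its own number. No clear pairing by number was seen, and 5 pairs are too few to exclude one. Of 176 ratio values under alternatives, 174 kept their direction and side of the threshold, and the other 2 are those of miR-146a-5p over miR-146b-5p without HCC mouse 3 (-2.35) or 7 (-2.31).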
